A study of Mus musculus with 4 samples.

Results

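Dividing CD8 T cells, as named here, are tumor-infiltrating lymphocytes (TILs) that held RNA of the cell cycle genes Mki67 or Top2a when the cells were captured. They were taken from cells that passed a floor of 600 detected genes and a ceiling of 30% mitochondrial UMIs, and that held at least 1 UMI of Cd3e, at least 1 UMI of Cd8a or Cd8b1, no UMI of Cd4 or Foxp3, and at least 2 UMIs of Mki67 and Top2a together. A UMI (unique molecular identifier) marks 1 captured RNA molecule. The rule gave 1085 dividing cells among 9152 CD8 T cells and 20170 cells of all kinds. They were compared with 6771 CD8 T cells that held no UMI of Mki67 or Top2a, called non-dividing here, and the 1296 CD8 T cells with exactly 1 such UMI were left out of both classes.

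The tumor was B16 melanoma, a line that grows when injected into C57BL/6 mice, and the mice were 6 to 8 weeks old. All mice received a peptide vaccine (DeltaV TRP2 peptide with CpG and R848) on day 3 and the anti-CTLA-4 antibody 9H10 (100 µg) on days 4 and 8, and TILs were taken on day 18 after treatment. WT mice were Vsir fl/fl littermates without Cre, and VISTA-KO mice were Vsir fl/fl with CD4-Cre, which removes Vsir, the gene of the inhibitory surface protein VISTA, in all cells that pass through a Cd4-expressing stage in the thymus, CD4 and CD8 T cells alike. Tumors were pooled per genotype, from 5 to 6 mice by the methods, although another passage of the same source gives a different number, and CD4+ and CD8+ TILs were sorted after enrichment. Each genotype is thus 1 pool, with 1 gene expression library and 1 T cell receptor (TCR) library. With 1 library per genotype no test was run: cells of 1 library are not replicates, each interval is an exact 95% one, by Clopper-Pearson for shares and by Poisson counts for levels and folds, and covers counting error only.

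A CD8 T cell that meets its antigen leaves quiescence, takes up nutrients, builds nucleotides and runs through successive divisions, so that its progeny share 1 TCR and form a clonotype. In tumors, antigen that persists brings on exhaustion, a state marked by inhibitory receptors such as PD-1 (Pdcd1), TIM-3 (Havcr2) and LAG-3 (Lag3) and by the transcription factor TOX. Memory and stem-like cells instead hold TCF-1 (Tcf7), the IL-7 receptor (Il7r) and the lymph node trafficking genes Ccr7, S1pr1 and Klf2, and they are regarded as the reserve from which exhausted progeny arise. Mki67 encodes a protein that coats the chromosomes of cycling cells, and Top2a encodes the topoisomerase that untangles replicated DNA.

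Vsir, the deleted gene, stood in dividing cells at 69.8 CPM (UMIs of the gene scaled to a fixed total of UMIs in the class) in WT and at 69.2 CPM in VISTA-KO, and at 128 and 130 CPM in non-dividing cells. The level did not separate the genotypes. Reads taken from 1 end of a transcript may lie outside the deleted exons, and the labels and methods differ on which end was read, so the level checks neither the deletion nor the labels.

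The WT library held 556 dividing of 5068 CD8 T cells and the VISTA-KO library 529 of 4084. The WT share was 11% (interval 10.1 to 11.9%), and the VISTA-KO share 13% (11.9 to 14.0%). The WT library held 72098984 UMIs over all its cells and the VISTA-KO library 59916814. Dividing cells held more RNA than non-dividing cells, with a median of 13165 UMIs against 4408 in WT and of 10836 against 4793 in VISTA-KO. They also had more detected genes, a median of 3655 against 1811 in WT and of 3297 against 1868 in VISTA-KO, whereas the median mitochondrial share was 0.893% against 0.897% and 0.832% against 0.913%. The call moved with the UMIs of the cell, and more RNA in cycling cells and easier detection in deeper cells cannot be told apart here. In WT, 2.34% of CD8 T cells under 4000 UMIs and 86.6% of those over 20000 UMIs were called dividing, and in VISTA-KO 3.90% and 86.5%. After each cell was thinned to 2000 UMIs, the share with at least 1 UMI of Mki67 or Top2a was 13.2% of WT cells (12.2 to 14.2%) and 14.4% of VISTA-KO cells (13.3 to 15.5%). These intervals overlapped between the libraries.

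**Figure D1:**
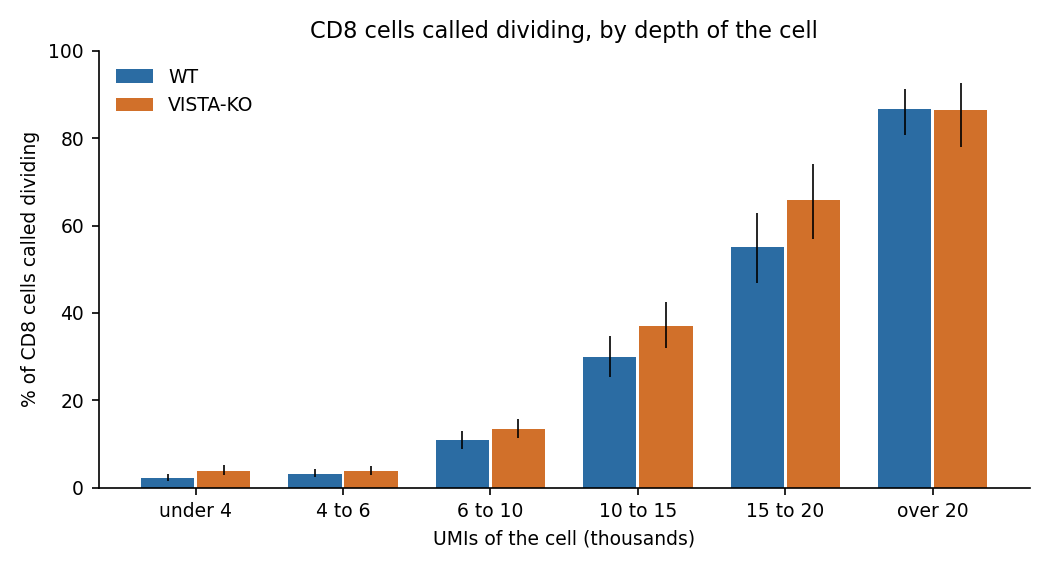
Share of CD8 T cells called dividing (percent, vertical axis) against the UMIs of the cell, for WT (blue) and VISTA-KO (orange), with exact 95% Clopper-Pearson intervals as lines. The share climbed from 2.34% and 3.90% in the shallowest cells to 86.6% and 86.5% in the deepest.

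Since the rule read Cd3e, Cd8a and Cd8b1, the label was checked on Cd3d, a T cell receptor complex gene that it did not read. After thinning to 2000 UMIs, 85.4% of WT and 83.4% of VISTA-KO dividing cells held a Cd3d UMI. Non-dividing cells held one in 91.8% and 90.5%, with intervals above those of the dividing cells. The shares were 4.83% and 0.980% in cells with the plasmacytoid dendritic cell gene Siglech and no Cd3e UMI. Cd8b1, which the rule read and which therefore checks nothing, was at 1236 CPM in WT dividing cells against 1754 CPM in non-dividing ones, and at 1163 against 1552 CPM in VISTA-KO. Of the 5 B cell genes, summed to 64.5 CPM in dividing and 124 CPM in non-dividing WT cells and to 35.8 and 88.4 CPM in VISTA-KO, Ighm was the most abundant and Ms4a1 had no UMI in dividing cells. Igkc, an antibody light chain gene outside that list, went the other way, at 87.2 against 52.7 CPM in WT and 35.5 against 31.1 CPM in VISTA-KO. Of the 7 gamma-delta T cell and NK cell genes, summed to 97.1 and 117 CPM in WT and 79.2 and 137 CPM in VISTA-KO, Fcer1g was the most abundant and Ncr1 had no UMI in dividing cells. Mki67 itself stood at 371 CPM in WT cells and 445 CPM in VISTA-KO, and Top2a at 410 and 527 CPM. Of the dividing cells, 69.1% in WT and 67.7% in VISTA-KO held both genes. At the threshold, cells just outside (1 UMI) held 2.51 mitosis-list UMIs per 10000 in WT and 3.49 in VISTA-KO, cells just inside (2 UMIs, 29.7% of the WT and 32.1% of the VISTA-KO dividing cells) held 5.33 and 4.95, and cells with 10 or more held 54.2 and 64.5. Non-dividing cells held 1.77 and 1.63, so the cells with exactly 2 UMIs lay nearer to the non-dividing cells than to the strongest cycling cells.

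UMIs of melanoma genes sat in a few droplets, and those of other cell type lists were spread more widely. Macrophage genes had a UMI in 450 of 556 WT and 411 of 529 VISTA-KO dividing cells, and B cell genes in 213 and 121. In VISTA-KO, 3 dividing barcodes held 5700 of the 5708 UMIs of 6 melanoma genes, with depths of 128421, 107883 and 59492 UMIs, and made up 4.34% of the UMIs of the class. In WT, 1 dividing cell held 114 of 140 such UMIs. The 8 macrophage genes summed to 382 CPM in WT dividing and 280 CPM in WT non-dividing cells, and to 299 and 261 CPM in VISTA-KO, with Cst3 the most abundant (232, 182, 161 and 136 CPM). Scrublet scores above percentile 92 of the library were held by 6.66% of dividing and 3.46% of non-dividing WT cells, and by 5.29% and 3.36% in VISTA-KO. The 8 CD4 and regulatory T cell genes, several of which activated CD8 T cells also express, summed to 443 against 321 CPM in WT and to 359 against 388 CPM in VISTA-KO. Capg was the most abundant of them, Tnfrsf4 and Ikzf2 lay above 0 in both libraries, and their part in the results was not tested. Cells were also removed: without the 40 WT and 24 VISTA-KO dividing cells with 3 or more UMIs of 8 genes of macrophages, plasmacytoid dendritic cells, melanoma and B cells, the memory list median given below was −1.24 in WT and −1.54 in VISTA-KO, and the inhibitory receptor median 0.27 and 0.34. The libraries shared 145 barcodes, and none of these was a dividing cell in both.

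The genes with the highest ratios in dividing cells were those of the cell cycle, which the choice of cells by Mki67 and Top2a makes a description of the class and not a finding. Values of all other genes come from the same contrast and are likewise given as a description. Of 6158 genes that reached 20 CPM in a class of each library, 336 (5.46%) were at least 2-fold higher in dividing cells of both libraries and 74 (1.2%) at least 2-fold lower, on the scale of log2(CPM + 5), and 45.2% lay above 0 and 41.7% below 0 in both. The log2 ratios of both libraries went together across genes (Pearson r 0.949 over the 6158 genes, which are not independent replicates). Pclaf, a partner of the replication clamp PCNA, stood at 551 CPM in dividing against 7.92 CPM in non-dividing WT cells and at 643 against 9.21 CPM in VISTA-KO. Ccna2 (cyclin A) was at 187 against 1.98 CPM and at 250 against 1.68 CPM. Rrm2, a subunit of the enzyme that makes deoxyribonucleotides, was at 246 against 6.82 CPM and at 343 against 5.47 CPM. Birc5 (survivin) and Cenpf (a kinetochore protein) ranked beside them, at 319 against 8.39 CPM and 144 against 1.93 CPM in WT. Genes outside the cell cycle lists were of the same kind: Stmn1, which takes microtubules apart, the histone genes Hist1h2ae and Hist1h1b, the kinetochore genes Spc24 and Knl1, and the cohesin acetyltransferase Esco2.

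Of the replication list, 27 of 29 genes passed 2-fold in both libraries, with a median log2 ratio of 2.28 in WT and 2.24 in VISTA-KO. The exceptions were Cdt1, the licensing factor that is destroyed once S phase begins (log2 ratio 0.35 in WT and 0.43 in VISTA-KO), and E2f2 (0.89 and 1.19). All 27 measured genes of the mitosis list passed 2-fold, with medians of 3.66 and 3.95. Scored by which list held more of a cell's UMIs, 61.2% of WT and 57.8% of VISTA-KO dividing cells leaned to replication (under 40% mitosis UMIs), 23.9% and 24.6% leaned to mitosis (over 60%), and 13.8% and 17.0% lay between. Along this axis Pdcd1 was at 600, 672 and 606 CPM in replication-leaning, intermediate and mitosis-leaning WT cells and 489, 630 and 518 CPM in VISTA-KO. Tcf7 was at 58.8, 22.1 and 43.0 CPM in WT and 47.9, 20.6 and 32.9 CPM in VISTA-KO, and Il7r was at 39.7, 12.3 and 17.3 CPM and at 51.7, 25.01 and 16.2 CPM. Non-dividing cells lie at the replication end of this axis too, with 861 replication against 177 mitosis CPM in WT and 849 against 163 CPM in VISTA-KO, and 29.7% of WT dividing cells had exactly 2 Mki67 and Top2a UMIs. How many replication-leaning cells were called on so few UMIs was not tested, and no order of phases is read from these shares and levels.

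The promoters of these genes are shown because members of each list were higher together. E2F factors open S phase genes, the DREAM complex holds mitotic genes silent in resting cells through CHR elements, and the activator NF-Y binds CCAAT boxes. In RefSeq promoters (GRCm38.p6, 250 bases before to 50 after the start), both strands were searched for the E2F letters TTTCGCGC, TTTGGCGC, TTTCCCGC or TTTGCCGC, the CHR letters TTTGAA, and the letters CCAAT. No motif contains the letters of another, but matches can overlap at their ends. An E2F match lay in 11 of 29 replication promoters (37.9%) against 2.26% of all 32851 promoters. A CHR match lay in 19 of 26 mitosis promoters (73.1%) against 17.9%, and a CCAAT match in 19 of 26 (73.1%) against 37.4%. CCAAT was also found in 18 of 29 replication promoters (62.1%). A match is a description and no proof of a site. Cenpf (chr1:189688037-189688336, minus strand) is an example with 1 CHR and 2 CCAAT matches in capitals, and Clspn, which helps to guard replication forks (chr4:126556730-126557029, plus strand), an example with 1 E2F and 2 CCAAT matches, all in capitals and read on the other strand:
Cenpf promoter: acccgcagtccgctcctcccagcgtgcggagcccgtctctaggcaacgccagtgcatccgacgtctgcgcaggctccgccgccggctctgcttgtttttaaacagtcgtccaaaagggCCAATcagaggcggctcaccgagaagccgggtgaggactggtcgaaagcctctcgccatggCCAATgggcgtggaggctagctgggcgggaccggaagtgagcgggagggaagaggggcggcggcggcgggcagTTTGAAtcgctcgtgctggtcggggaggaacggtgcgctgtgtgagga
Clspn promoter: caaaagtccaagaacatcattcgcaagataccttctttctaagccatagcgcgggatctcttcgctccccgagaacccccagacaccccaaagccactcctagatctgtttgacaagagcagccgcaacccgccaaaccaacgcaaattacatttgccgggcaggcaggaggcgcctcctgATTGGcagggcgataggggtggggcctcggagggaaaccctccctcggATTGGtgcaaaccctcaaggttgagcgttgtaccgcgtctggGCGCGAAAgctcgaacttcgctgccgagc

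Growth genes were higher in dividing cells too. All 17 nucleotide synthesis genes lay above 0 in both libraries, 6 of them past 2-fold, with a median of 1.01 in WT and 0.85 in VISTA-KO. Shmt1, which feeds carbon units into thymidylate synthesis, stood at 36.8 against 4.01 CPM in WT and 30.2 against 6.41 CPM in VISTA-KO. Of 15 glycolysis genes, 13 lay above 0 in both libraries, 2 past 2-fold (Tpi1 and Slc16a3), with medians of 0.57 and 0.56. Tpi1 was at 553 against 188 CPM and Ldha at 1537 against 785 CPM in WT. Both groups exceeded the 45.2% of all genes that lay above 0.

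**Figure D2:**
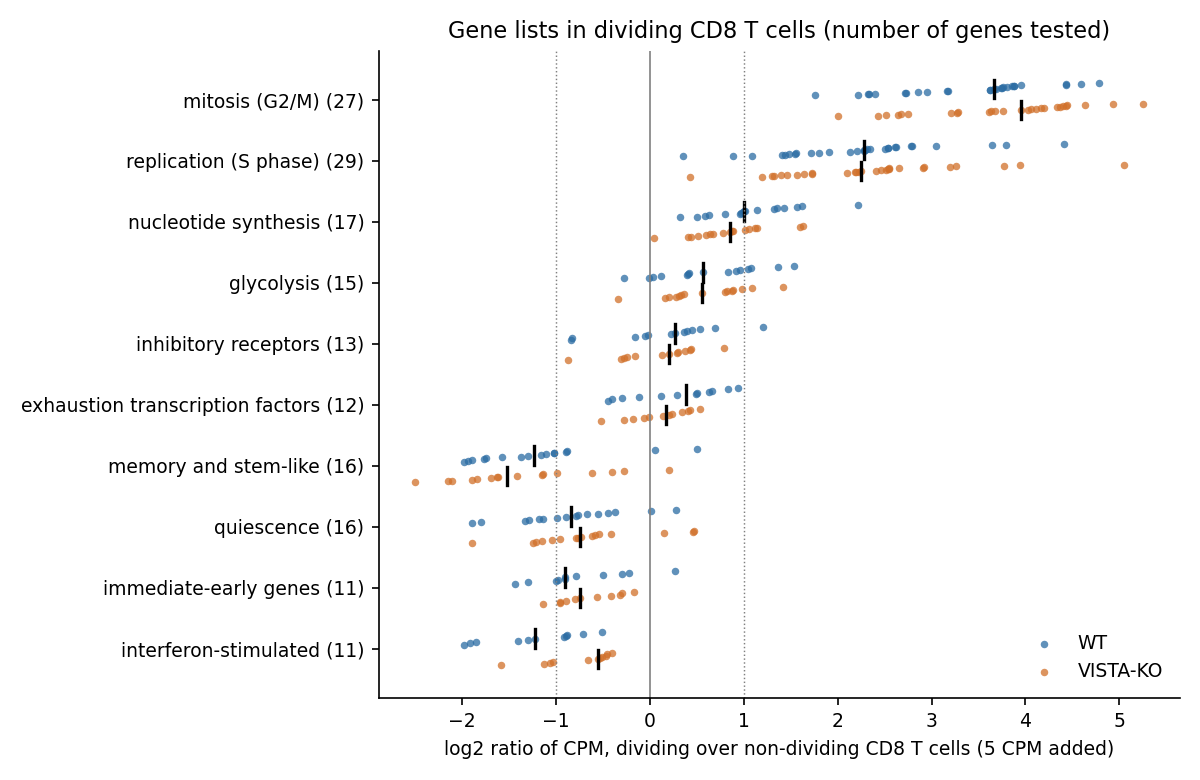
Each point is 1 gene of a list, placed by its log2 ratio of CPM in dividing over non-dividing CD8 T cells (horizontal axis, 5 CPM added), for WT (blue) and VISTA-KO (orange). Black bars are medians and dotted lines mark 2-fold; mitosis and replication genes lie to the right, memory genes to the left (medians −1.23 and −1.52), and the inhibitory receptors a little above 0 (0.27 and 0.20).

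Inhibitory receptors lay on both sides of 0 in the dividing cells taken as a whole. Of 13 measured, 8 lay above 0 in both libraries and 5 below, against 45.2% and 41.7% of all genes, none passed 2-fold in both, and the median log2 ratio was 0.27 in WT and 0.20 in VISTA-KO. Among cells of 5000 or more UMIs the median was 0.10 in WT and −0.05 in VISTA-KO, with Pdcd1 at 0.26 and 0.23, Havcr2 at 0.82 and 0.46 and Lag3 at 0.15 and 0.06. Pdcd1 (chr1:94038305-94052553, GRCm38) stood at 612 CPM in dividing and 446 CPM in non-dividing WT cells and at 526 and 387 CPM in VISTA-KO. Havcr2 (chr11:46454931-46481255) had the largest log2 ratio of the receptors above 0 in both libraries, with 91.8 against 37.1 CPM in WT and 105 against 58.5 CPM in VISTA-KO. Lag3 was at 261 against 179 CPM and 227 against 183 CPM, and Ctla4, whose protein the antibody given to the mice binds, at 172 against 133 CPM and 260 against 193 CPM. Tigit, Entpd1, Cd200r1 and Cd244a also lay above 0, with log2 ratios between 0.13 and 0.70. The 5 receptors below 0 were Klrc1 (−0.84 in WT and −0.27 in VISTA-KO), Vsir (−0.83 and −0.87), Cd160, Cd101 and Cd38, and Btla did not reach 20 CPM.

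Of 12 exhaustion transcription factors, 7 lay above 0 in both libraries and 4 below, shares near the 45.2% and 41.7% of all genes, with medians of 0.39 and 0.17. Over cells of at least 5000 UMIs the medians were 0.28 and 0.077. Tox stood at 262 against 164 CPM in WT and 207 against 153 CPM in VISTA-KO, log2 ratios of 0.66 and 0.42 that were 0.39 and 0.31 over cells of at least 5000 UMIs. Ikzf2, the gene of Helios, was at 105 against 52.4 CPM in WT and 66.9 against 51.8 CPM in VISTA-KO, and Nr4a2, Rbpj, Eomes, Batf and Prdm1 also lay above 0. Nr4a1, an early target of TCR signaling, lay lower in dividing cells, at 94.6 against 127 CPM in WT and 282 against 407 CPM in VISTA-KO, as did Nr4a3, Nfatc1 and Id2 (−0.30 and −0.01).

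Memory genes were lower in dividing cells. Of 16 memory and stem-like genes, 14 lay below 0 in both libraries against 41.7% of all genes, 10 of them past 2-fold against 1.2% of all genes, and the median was −1.23 in WT and −1.52 in VISTA-KO. Tcf7 (chr11:52246527-52283383) stood at 50.8 against 182 CPM in WT and 38.6 against 183 CPM in VISTA-KO. Il7r (chr15:9506159-9529941) was at 31.6 against 135 CPM and 37.0 against 181 CPM. Klf2 (chr8:72319062-72321654), which drives S1pr1, was at 136 against 520 CPM and 200 against 759 CPM. The homing genes followed the same order, S1pr1 at 14.5 against 61.2 CPM and 19.8 against 83.6 CPM, and Ccr7 at 42.0 against 100 CPM and 46.6 against 154 CPM. The anti-apoptotic gene Bcl2, the TCF-1 partner Lef1, the chromatin organizer Satb1 and the chemokine receptor Cxcr3 were lower as well, with log2 ratios between −0.99 and −1.69. Eomes lay above 0 in both libraries, and Cd27 was at 0.06 in WT and −0.27 in VISTA-KO.

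Quiescence, interferon and immediate-early genes lay on the same side as memory genes, where 41.7% of all genes lay below 0 in both libraries. Of 16 quiescence genes, 13 lay below 0 in both (medians −0.84 and −0.75), with Btg1, an antiproliferative gene, at 635 against 1558 CPM and Txnip, a brake on glucose uptake, at 148 against 527 CPM in WT. All 11 interferon-stimulated genes lay below 0 (medians −1.22 and −0.56), and Ifit3 was at 21.9 against 101 CPM in WT and 24.3 against 83.1 CPM in VISTA-KO. Of 11 immediate-early genes, 10 lay below 0 in both libraries (medians −0.90 and −0.75).

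Killing and cytokine genes did not lie on 1 side of 0. Prf1, the pore-forming perforin, stood at 259 against 170 CPM in WT and 226 against 182 CPM in VISTA-KO. Gzma was lower, at 162 against 448 CPM and 101 against 233 CPM, and Gzmb, the main killing protease, was at 672 against 798 CPM in WT but 1557 against 1255 CPM in VISTA-KO. The chemokine Ccl5 was lower, at 4665 against 11909 CPM and 6016 against 12029 CPM, while Ccl3 was at 578 against 286 CPM and 652 against 391 CPM. Spp1, the secreted phosphoprotein osteopontin, passed 2-fold in both libraries, at 83.4 against 17.6 CPM and 55.0 against 12.4 CPM. In VISTA-KO 1 cell held 114 of its 375 UMIs, and without the cells that held other RNA Spp1 was at 88.0 against 17.2 CPM in WT but 21.4 against 12.0 CPM in VISTA-KO, under 2-fold. Of the activation receptors, Tnfrsf9 (4-1BB) was at 370 against 117 CPM and 279 against 154 CPM, Cd69 was lower at 218 against 513 CPM and 289 against 537 CPM, and the growth regulator Myc was at 162 against 76.2 CPM in WT and 88.0 against 87.9 CPM in VISTA-KO. Of the 8 measured genes of circulating effector cells, 6 lay below 0 in both libraries, against 41.7% of all genes, and 2 passed 2-fold, among them Klf3 at 18.1 against 87.7 CPM in WT.

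The receptors and memory genes were also counted as shares of cells at matched depth. After thinning to 2000 UMIs, 60.3% of dividing and 37.9% of non-dividing WT cells held a Pdcd1 UMI, and 54.9% and 33.4% in VISTA-KO, against 0 of 145 WT cells (which allows a share of up to 2.51%) and 1.96% of VISTA-KO cells with Siglech, a gene of plasmacytoid dendritic cells, and without Cd3e, which serve as a background. Unthinned, the Pdcd1 shares were 87.6% and 51.5% in WT and 80% and 47.4% in VISTA-KO, at median depths of 13421 and 4539 UMIs and of 10865 and 4907 UMIs. Cd101 and Cd38, below 0 in CPM, did not keep that order: Cd101 was held by 6.92% of dividing and 6.14% of non-dividing WT cells and Cd38 by 10.0% and 8.62%, with overlapping intervals. Nr4a1 and Nr4a3, also below 0 in CPM, had overlapping intervals in both libraries. Nr4a1 was held by 14.4% and 15.1% in WT and 35.6% and 35.9% in VISTA-KO, and Nr4a3 by 4.74% and 4.54% and by 11.2% and 11.7%. Havcr2 was held by 17.1% of dividing against 4.99% of non-dividing WT cells and by 17.9% against 7.71% in VISTA-KO. Tcf7 was held by 12.2% against 26.4% and by 8.19% against 24.96%. For Lag3, Il7r, Klf2 and Cd38 the Siglech+ cells gave no background, since 39.3%, 44.1%, 42.1% and 9.66% of the WT ones held a UMI after thinning. Cells with both Pdcd1 and Havcr2 made up 11.1% of dividing and 3.35% of non-dividing WT cells and 11.8% and 4.75% in VISTA-KO. Cells with both Pdcd1 and Tcf7, the pair that marks progenitor exhausted cells, made up 4.55% and 5.83% in WT and 2.10% and 4.05% in VISTA-KO, with overlapping intervals in both libraries. Cells with both Il7r and Tcf7 made up 2.91% against 7.61% and 2.67% against 10.7%.

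**Figure D3:**
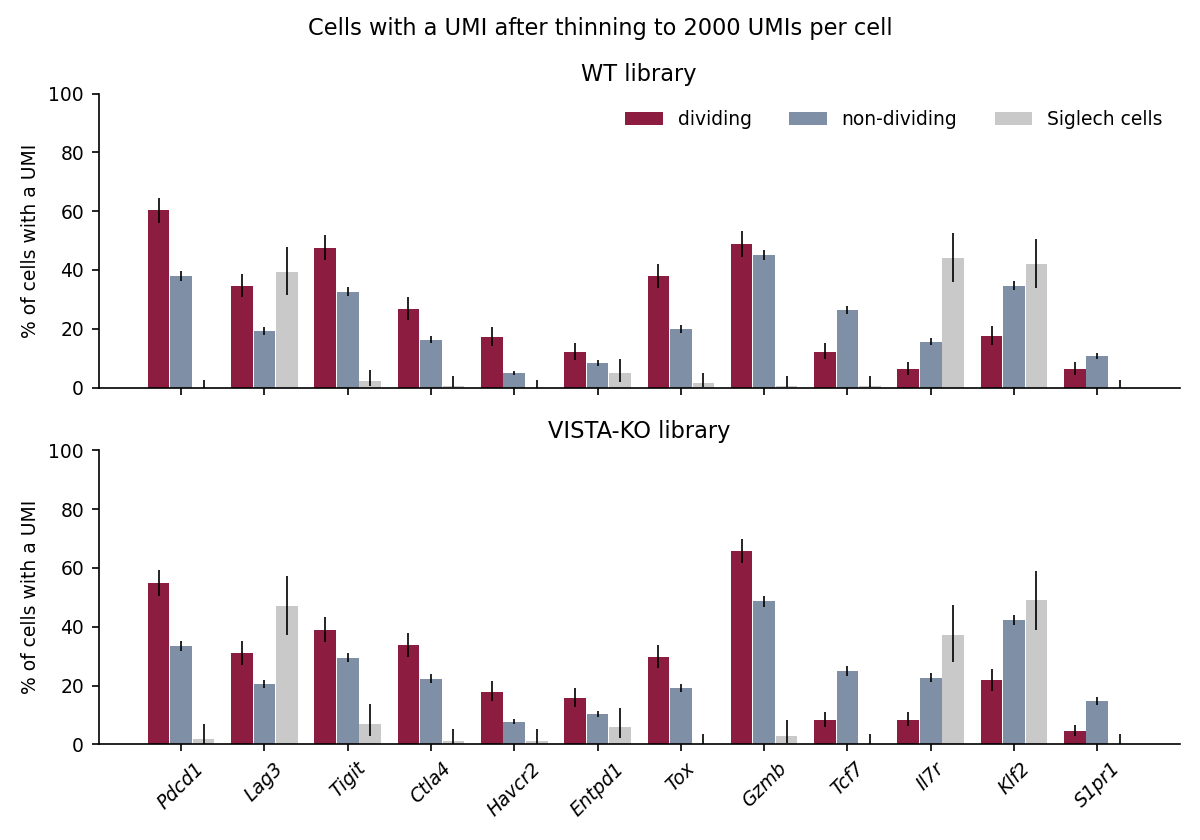
Percent of cells with at least 1 UMI of each gene after thinning to 2000 UMIs, for dividing (red), non-dividing (blue-grey) and Siglech+ cells (light grey), with exact 95% Clopper-Pearson intervals. Receptor genes such as Pdcd1 (60.3% against 37.9% in WT) stand higher in dividing cells, and Tcf7 (12.2% against 26.4%) lower.

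Read the other way, the share of cells with a Mki67 or Top2a UMI was compared between cells with and without each gene. In thinned cells, 24.9% of WT cells with a Havcr2 UMI and 12.3% of those without held a Mki67 or Top2a UMI, and 24.5% and 13.3% in VISTA-KO. For Tcf7 the shares were 9.59% with and 14.3% without in WT, and 8.04% and 16.1% in VISTA-KO. For Il7r they were 7.73% and 14.0%, and 6.83% and 16.2%. For Klrg1 the intervals overlapped in both libraries (11.5% and 13.3%, and 14.5% and 14.4%), and for Gzmb in WT (13.7% and 12.7%).

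The TCR libraries joined these cells to clonotypes, defined by V gene and CDR3 nucleotides of both receptor chains, where the contig with the highest UMI count stood for its chain. Both chains were read in 377 WT (67.8%) and 427 VISTA-KO (80.7%) dividing cells, against 80.5% and 81.4% of non-dividing cells. No beta chain was read in 29.9% of WT dividing cells against 14.1% of non-dividing ones, and in 14.6% against 9.57% in VISTA-KO. The WT dividing cells without a beta chain held Cd3d at 983 CPM against 1008 CPM in those with one, Trbc2 at 253 against 239 CPM and Trac at 299 against 301 CPM. Other genes differed in WT, with intervals that did not overlap: Trbc1 was at 94.6 against 73.6 CPM and Pdcd1 at 539 against 653 CPM. In VISTA-KO, Trac was at 389 against 283 CPM, Cd3d at 1071 against 949 CPM and Pdcd1 at 617 against 507 CPM, while the Trbc1 and Trbc2 intervals overlapped. T cell genes were thus present without a contig, but levels were not alike for all genes. The clonotype values for WT rest on fewer of its dividing cells, and those left out held less Pdcd1. The 377 WT cells fell into 115 clonotypes and the 427 VISTA-KO cells into 208.

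The CDR3 of the 3 clonotypes with most dividing cells in each library are given here (for VISTA-KO clonotype 3, the alpha chain). This choice rests on the call before thinning. After thinning, 10.0% of the 60 cells of VISTA-KO clonotype 3 held a Mki67 or Top2a UMI, against 23.3% of the 43 of VISTA-KO clonotype 4. Clonotypes are numbered by their count of CD8 T cells, sequences are the deposited CDR3 nucleotides, and capitals mark the bases of the longest stretch between the matched V and J ends (none where the ends meet):
WT clonotype 2 alpha (TRAV14-2, TRAJ26): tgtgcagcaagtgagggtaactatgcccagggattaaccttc
WT clonotype 2 beta (TRBV10, TRBJ2-4): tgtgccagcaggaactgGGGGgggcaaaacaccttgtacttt
WT clonotype 1 alpha (TRAV10N, TRAJ9): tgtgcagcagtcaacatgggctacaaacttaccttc
WT clonotype 1 beta (TRBV12-2, TRBJ2-7): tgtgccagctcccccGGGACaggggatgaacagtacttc
WT clonotype 3 alpha (TRAV7-3, TRAJ7): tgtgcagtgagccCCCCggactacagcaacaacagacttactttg
WT clonotype 3 beta (TRBV20, TRBJ2-4): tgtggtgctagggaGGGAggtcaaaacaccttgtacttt
VISTA-KO clonotype 1 alpha (TRAV16N, TRAJ17): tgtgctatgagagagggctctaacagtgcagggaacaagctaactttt
VISTA-KO clonotype 1 beta (TRBV13-1, TRBJ2-7): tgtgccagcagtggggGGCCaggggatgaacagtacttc
VISTA-KO clonotype 2 alpha (TRAV12D-3, TRAJ45): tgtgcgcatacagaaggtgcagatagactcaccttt
VISTA-KO clonotype 2 beta (TRBV13-1, TRBJ2-7): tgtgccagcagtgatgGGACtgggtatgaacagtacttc
VISTA-KO clonotype 3 alpha (TRAV12-2, TRAJ32): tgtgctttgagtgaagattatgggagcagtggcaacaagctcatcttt

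Clonotypes differed widely in how many of their cells were dividing. WT clonotype 1 held 1006 CD8 T cells and 40 of them were dividing, 3.98% (2.86 to 5.38%). WT clonotype 2 held 312 with 44 dividing, 14.1% (10.4 to 18.5%), and WT clonotype 3 held 76 with 28 dividing, 36.8% (26.1 to 48.7%). WT clonotype 9 (TRAV9D-2 with TRBV1) reached 55.8% of 43 cells, and the intervals of clonotypes 1, 2 and 3 did not overlap in these raw shares. After thinning, the shares of WT clonotypes 1, 2, 3 and 9 with a Mki67 or Top2a UMI were 9.21%, 13.4%, 22.4% and 40.5%, and the intervals of clonotypes 1 and 2 (7.46 to 11.2% and 9.73 to 17.8%) and of 2 and 3 (13.6 to 33.4%) then overlapped. WT clonotypes 7 and 13, with 45 and 34 cells, had no dividing cell, but 11.1% (3.71 to 24.1%) and 2.94% (0.0744 to 15.3%) of their cells held a Mki67 or Top2a UMI after thinning. In VISTA-KO, clonotype 1 held 285 CD8 T cells with 70 dividing, 24.6% (19.7 to 29.98%), clonotype 2 held 147 with 49, 33.3% (25.8 to 41.6%), and clonotype 3 held 60 with 17, 28.3% (17.5 to 41.4%). These 3 intervals overlapped in the raw shares. After thinning the shares were 21.6%, 29.9% and 10.0%, and the intervals of clonotypes 2 (22.7 to 38.03%) and 3 (3.76 to 20.5%) no longer overlapped. Clonotypes seen in a single CD8 T cell were dividing in 4.65% of WT and 7.05% of VISTA-KO cases, and 7.67% and 9.61% of them held a Mki67 or Top2a UMI after thinning.

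**Figure D4:**
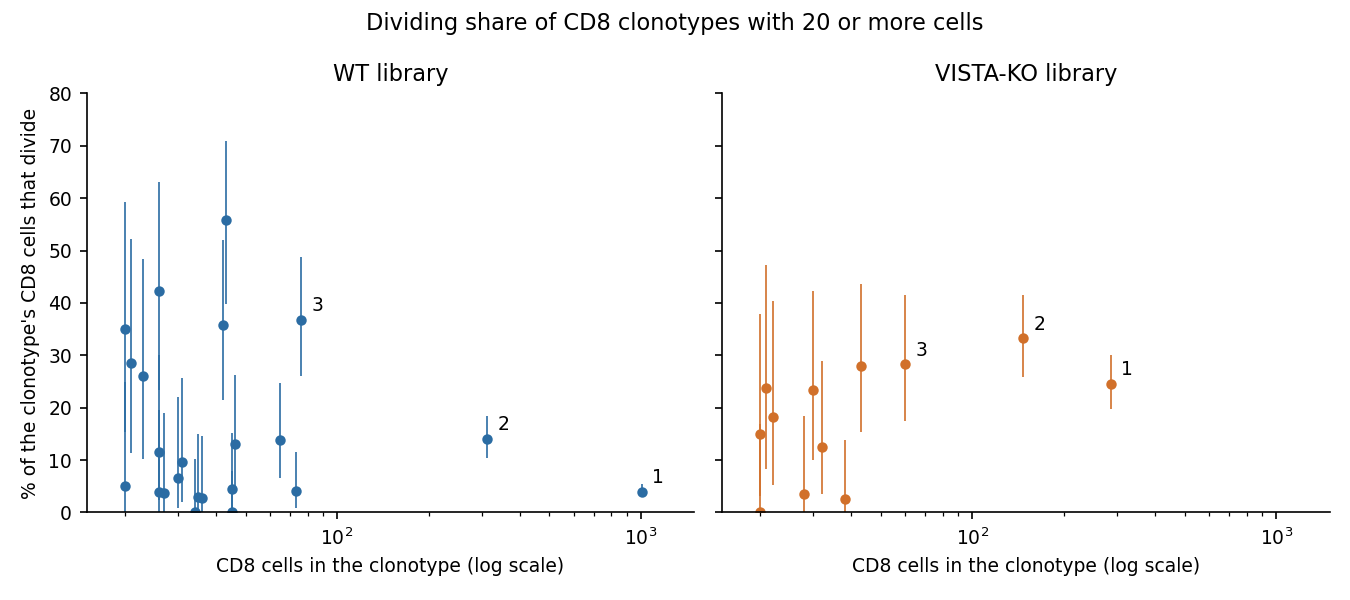
Percent of a clonotype's CD8 T cells that were dividing (vertical axis) against its number of CD8 T cells (log axis), for clonotypes with 20 or more cells, with exact 95% Clopper-Pearson intervals. The 3 largest WT clonotypes lie at 3.98%, 14.1% and 36.8%, and the 3 largest VISTA-KO clonotypes between 24.6% and 33.3%. All are raw shares, before thinning.

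The libraries differed in where the dividing cells sat in the repertoire. The clonotype with most dividing cells made up 44 of 377 dividing cells in WT, 11.7% (8.61 to 15.3%), whereas the largest clonotype of the non-dividing cells made up 822 of 3030, 27.1%. With cells called dividing after thinning, the largest share was 19.2% in WT and 12.95% in VISTA-KO, so that the order of the libraries turned. The WT leader was then WT clonotype 1, the largest clonotype of the non-dividing cells, and not WT clonotype 2. VISTA-KO clonotype 1 led both classes of its library, with 70 of 427 dividing cells, 16.4% (13.01 to 20.3%), and 171 of 2448 non-dividing cells, 6.99% (6.01 to 8.07%). The inverse Simpson index, the number of equally large clonotypes that would give the same evenness, was 24.2 in dividing against 12.3 in non-dividing WT cells and 23.1 against 139 in VISTA-KO. At an equal draw of 377 cells, 115 clonotypes were found in dividing WT cells and 177 were to be expected in non-dividing ones. In VISTA-KO, 188 and 282 were to be expected. This count was thus lower in dividing cells of both libraries, unlike the inverse Simpson index. Clonotypes with at least 5 other non-dividing cells held 69.8% (64.9 to 74.4%) of dividing and 65.0% of non-dividing WT cells, and 51.1% (46.2 to 55.9%) and 32.2% in VISTA-KO. Of the dividing cells, 87.8% in WT and 76.6% in VISTA-KO belonged to a clonotype that was also found among non-dividing cells. TRBV13-1 was the beta segment of 33.0% of VISTA-KO dividing cells against 16.3% of non-dividing ones, and TRBV12-2 of 11.4% against 28.9% in WT.

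Since clonotypes differ in state and in division, the dividing cells were also set against non-dividing cells of their own clonotypes, weighted so that each clonotype counted by its dividing UMIs. This comparison and the T cell identity genes in it were chosen after values had been seen. It used 263 dividing and 1696 non-dividing cells of 43 clonotypes in WT, and 218 and 682 cells of 42 clonotypes in VISTA-KO. Of the 6158 genes, 296 (4.81%) were at least 2-fold higher and 12 (0.195%) at least 2-fold lower in both libraries, and 38.9% lay above and 40.1% below 0 in both. Of the cell cycle genes, 25 of 29 replication genes (27 in the comparison of all cells) and 27 of 27 mitosis genes passed 2-fold in both libraries, Mcm6 (0.72) and Slbp (0.74) were under it in WT, and all 17 nucleotide synthesis genes lay above 0.

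The inhibitory receptors that lay above 0 against all clonotypes lay below 0 against their own, and Cd160, Cd101, Vsir and Klrc1 lay below 0 in both comparisons. All 13 inhibitory receptors lay below 0 in both libraries, with a median of −0.54 in WT and −0.53 in VISTA-KO, whereas the same dividing cells against all clonotypes had medians of 0.40 and 0.34. Pdcd1 stood at 671 CPM in WT dividing cells, 862 CPM in non-dividing cells of the same clonotypes and 453 CPM in non-dividing cells of all clonotypes, and in VISTA-KO at 588, 784 and 397 CPM. Lag3 was at 276, 462 and 182 CPM in WT and at 257, 385 and 189 CPM in VISTA-KO. Havcr2 differed little from the same clonotypes, at 95.3 against 98.3 CPM in WT and 140 against 155 CPM in VISTA-KO. Of the exhaustion transcription factors 8 lay below and 1, Ikzf2, above 0 in both.

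The general T cell genes were lower as well, so the receptors were not alone. Cd3e had log2 ratios of −0.50 in WT and −0.43 in VISTA-KO, Cd3d of −0.36 and −0.45, Cd8b1 of −0.45 and −0.39 and Ptprc (CD45) of −0.36 and −0.16. Counted per cell and not in CPM, the order was reversed, since dividing cells of these clonotypes held a mean of 13399 UMIs against 7013 in WT and 12352 against 6635 in VISTA-KO. A WT dividing cell held 8.99 Pdcd1 UMIs on average against 5.95 in non-dividing cells of the same clonotypes, and a VISTA-KO cell 7.26 against 5.21. Among clonotypes with at least 5 cells of each class, Pdcd1 in CPM was lower in the dividing cells of 12 of 13 in WT and 6 of 6 in VISTA-KO, Tigit in 13 of 13 and 6 of 6, Cd3e in 13 of 13 and 6 of 6, and Havcr2 in 6 of 13 and 4 of 6.

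The memory gap narrowed within clonotypes. Of 16 memory genes 11 lay below 0 in both libraries, none past 2-fold, with medians of −0.30 in WT and −0.50 in VISTA-KO, against −1.73 and −1.68 for the same dividing cells and all clonotypes. Tcf7 stood at 30.1 CPM in WT dividing cells, 37.2 CPM in non-dividing cells of the same clonotypes and 176 CPM over all clonotypes, and at 10.8, 24.98 and 173 CPM in VISTA-KO. Klf2 was at 99.6, 126 and 463 CPM in WT and at 134, 136 and 704 CPM in VISTA-KO. Of the granzyme and killing genes 9 of 10 lay below 0 in both libraries, and Ccl5 was past 2-fold lower (−1.27 and −1.34). Immediate-early genes lay on both sides of 0 within clonotypes. Junb was at −0.46 in WT and −0.29 in VISTA-KO, Fos at 0.0040 and 0.26, and Zfp36 at −0.69 and 0.15.

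**Figure D5:**
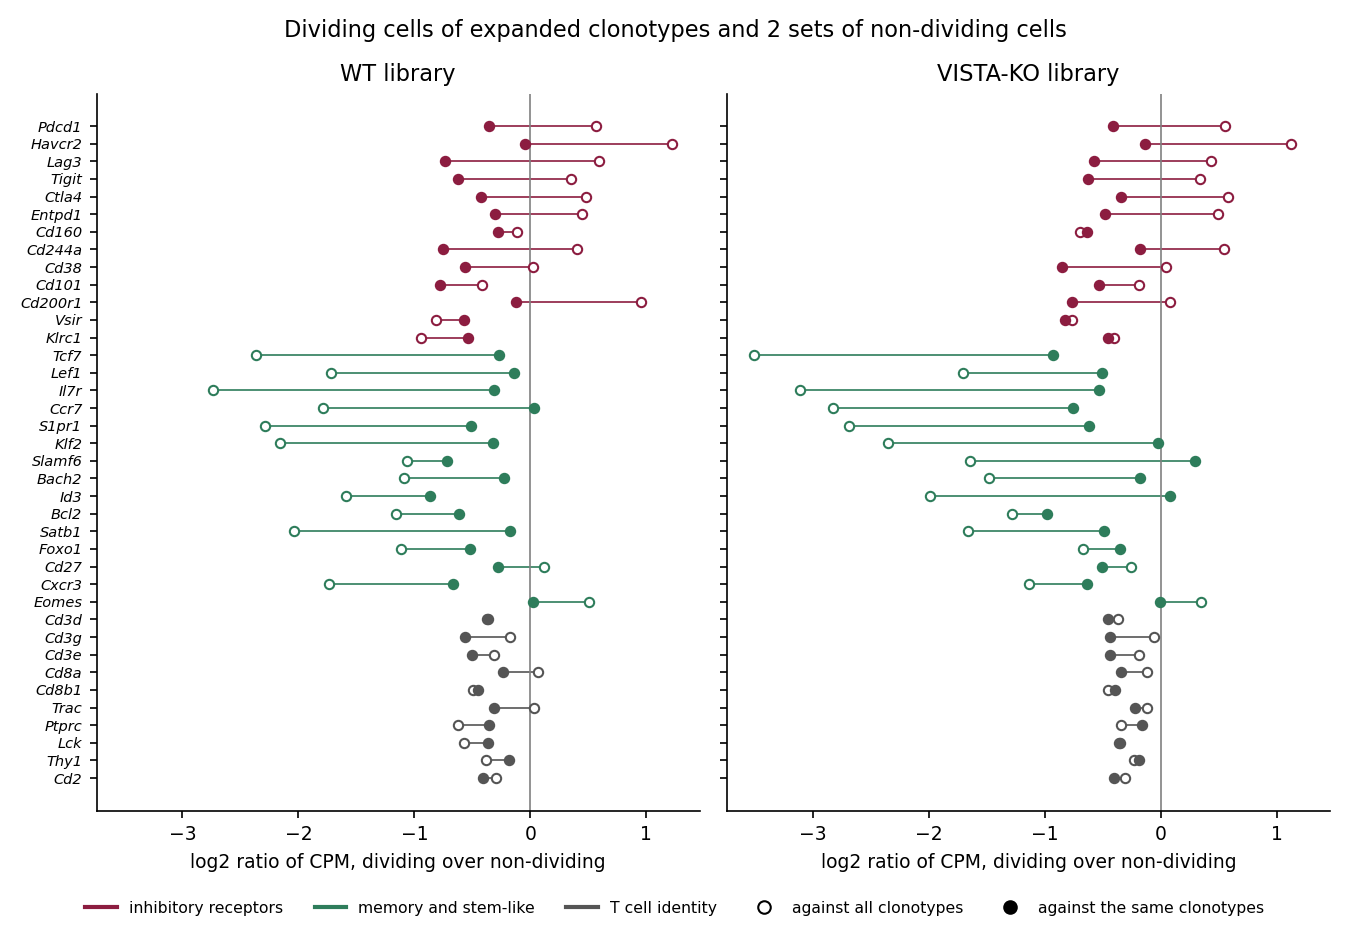
Log2 ratio of CPM (horizontal axis) in dividing over non-dividing cells for the dividing cells of clonotypes with at least 5 non-dividing cells, against non-dividing cells of all clonotypes (open circles) and of the same clonotypes (filled circles), for WT (left) and VISTA-KO (right). All 13 inhibitory receptors have filled circles below 0, the memory genes drawn have a median nearer to 0 when filled, and the T cell identity genes lie below 0 when filled.

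The largest clonotypes showed these states side by side. Dividing cells of WT clonotype 2 held Pdcd1 at 719 CPM against 1023 CPM in its non-dividing cells, and those of WT clonotype 1 at 347 against 393 CPM. Havcr2 was at 130 CPM in dividing cells of WT clonotype 2, 9.82 CPM (3 UMIs) in those of WT clonotype 1 and 128 CPM in those of WT clonotype 3. Gzmb in VISTA-KO clonotypes 1 and 2 was at 2837 and 3065 CPM in dividing and 3371 and 3892 CPM in non-dividing cells, and it was at 530 CPM in dividing cells of WT clonotype 2. Slamf6, a marker of stem-like cells, was at 52.3 against 85.5 CPM in WT clonotype 1, and had 0 and 1 UMI in the dividing and non-dividing cells of WT clonotype 3.

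Between the genotypes, dividing cells of VISTA-KO over WT differed by at least 2-fold in few genes. Of 6167 genes 54 (0.876%) were higher and 20 (0.324%) lower in VISTA-KO, and the median size of the log2 ratio was 0.11, against 0.09 for the same genes in non-dividing cells. Genes were ranked only among those with the same direction in non-dividing cells, TCR segments left out. The 10 highest, led by Pmel, Ptgds, Dct, Gpnmb and Mlana, included melanocyte genes. Pmel stood at 363 against 4.28 CPM, nearly all of it from the 3 barcodes named above. Without the cells that held RNA of other cell types, 21 of 6099 genes (0.344%) were higher, 9 of them TCR segments, and 22 (0.361%) lower, 8 of them TCR segments. Nr4a1 stood at 93.1 CPM in WT cells and 280 CPM in VISTA-KO, 3.01-fold (2.76 to 3.29). It was also higher in non-dividing VISTA-KO cells, a direction that the ranking required of every gene it named. Cells with Siglech and no Cd3e UMI showed a gap of the same direction, with Nr4a1 held after thinning by 11.03% (6.44 to 17.3%) for WT and by 28.4% (19.9 to 38.2%) for VISTA-KO. Nr4a3, its relative, was at 21.2 and 66.0 CPM. Areg, an epidermal growth factor ligand, was at 1.57 and 29.2 CPM, from 11 WT and 24 VISTA-KO cells. Spp1 was lower, at 88.0 and 21.4 CPM, and so were Fscn1, which bundles actin and came from only 12 WT cells, and Mef2c.

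Leaving out the leading clonotypes moved several of these values. Gzmb was 2.25-fold higher in VISTA-KO among dividing cells with both chains (704 and 1585 CPM), and 1.58-fold when the 3 clonotypes with most dividing cells were also left out. Gzma was at 162 and 101 CPM over all dividing cells, at 107 and 113 CPM in those with both chains, and at 82.8 and 157 CPM without the 3 clonotypes. The ratio had thus passed from 0.625 to 1.06 with the restriction to cells with both chains alone, and was 1.89 without the 3 clonotypes. Ctla4 (chr1:60909025-60915832) was at 172 CPM in WT cells and 260 CPM in VISTA-KO, 1.51-fold (1.41 to 1.62), 1.499-fold (1.38 to 1.63) in cells with both chains and 1.30-fold (1.17 to 1.45) without the 3 clonotypes, and non-dividing cells had 133 and 193 CPM. Of the mitosis list, Mki67 and Top2a not counted, 29 genes reached 20 CPM in dividing cells of either library. All 29 lay above 0 in VISTA-KO over WT dividing cells (median 0.25), as did 54.5% of all genes. Their median was −0.07 in non-dividing cells. The rule chose dividing cells by Mki67 and Top2a, themselves 1.20-fold and 1.29-fold higher in VISTA-KO, and allowed non-dividing cells no UMI of either. The mitosis values are thus a description of the classes and not a finding about genotype. Pdcd1 was at 612 and 526 CPM and Myc at 162 and 88.0 CPM. With 1 pool per genotype, none of these differences can be told apart from a difference between the pools or between the libraries.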

How the data were processed

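TILs of 1 WT and 1 VISTA-KO pool were profiled by droplet single-cell sequencing with TCR libraries. Per the labels and methods, the authors used Cell Ranger on mm10 (GRCm38) and deposited filtered UMI counts per gene and cell and TCR contigs with UMI counts. The labels describe a 3′ kit and the methods a 5′ V(D)J kit, which bears on what the Vsir level can show.

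Cells and classes were set from raw UMIs, not from the study's clusters, so cell counts are not set against the study's. Members and lists were chosen with earlier results of these data known. UMIs were summed per class and library and given as CPM, with 5 CPM added for log2 ratios and a minimum of 20 CPM in 1 class of each library. Genes were named as the 10 highest and 10 lowest of each comparison, without TCR segments and the genes of the rule, beside the fixed lists. For VISTA-KO over WT, only genes with the same direction in non-dividing cells were ranked. Calls past 2-fold are a size rule, not a test. Cells were thinned to 2000 UMIs with a fixed seed. No cell was removed as a doublet in the values reported first. Scrublet was run with a threshold fixed beforehand, whose calls were not used. Cells above percentile 92 of its score were taken out as an alternative. The work ran in Python 3.11.15 with scanpy 1.11.5, pandas 2.3.3, scipy 1.17.1 and numpy 2.4.6, and the steps were tested on simulated data. Values of a few single genes are not reported here.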

Additional observations from a re-analysis of the deposited data

Results flagged for a closer look

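Several values pointed in opposite directions in the WT and VISTA-KO libraries. With 1 library per genotype, none of these differences was tested, and what lies behind them was not tested either.

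The share taken by the largest clonotype was 15.5 points lower in dividing than in non-dividing WT cells (a difference of −15.5 points) and 9.41 points higher in VISTA-KO. With cells called dividing after thinning, the leading clonotype took 19.2% of the dividing WT cells (WT clonotype 1) instead of 11.7% (WT clonotype 2). In VISTA-KO the leading clonotype took 12.95% instead of 16.4%. The inverse Simpson index of dividing over non-dividing cells was 1.96 in WT and 0.166 in VISTA-KO. Clonotype counts at an equal draw of 377 cells did not oppose each other. They were 115 in dividing against 177 in non-dividing WT cells, and 188 against 282 in VISTA-KO.

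Among killing genes, Gzmb had a log2 ratio of dividing over non-dividing cells of −0.25 in WT and 0.31 in VISTA-KO, and Gzmk one of −0.33 and 0.29. The shares of cells with a Gzmb UMI after thinning did not oppose each other. They were 48.8% of dividing and 45.1% of non-dividing WT cells, with overlapping intervals, and 65.9% and 48.7% in VISTA-KO. Klrg1, a receptor of short-lived effector cells, was at −0.81 in WT and 0.24 in VISTA-KO. The cell cycle inhibitor Cdkn2d was at −0.37 and 0.47. The chemokine gene Xcl1 was at 0.10 and −0.33, the immediate-early gene Ier3 at 0.27 and −0.32, and the transcription factor gene Bhlhe40 at 0.12 and −0.059. Against non-dividing cells of the same clonotypes, the values no longer opposed each other for Gzmb (−0.30 and −0.26), Gzmk (−0.0052 and −0.088), Cdkn2d (0.39 and 1.00), Bhlhe40 (−0.22 and −0.36) and Ier3 (0.24 and 0.00087), while Xcl1 was at 0.03 and −1.99. Lyz2, a myeloid gene, was at 0.45 in WT and −1.40 in VISTA-KO.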

How the results depend on the processing

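The sign of the memory list median held under every alternative that was run, and that of the exhaustion lists did not. Set against non-dividing cells of the same clonotypes (added after seeing the data), genes at least 2-fold lower went from 74 to 12 and exhaustion genes above 0 in both libraries from 15 to 1. In WT the values there were −0.54 for the inhibitory receptor median, −0.23 for the transcription factor median, −0.36 for Pdcd1, −0.042 for Havcr2, −0.73 for Lag3, −0.62 for Tigit, −0.42 for Ctla4, −0.30 for Entpd1, −0.39 for Tox, 0.0087 for Nr4a1 and −0.0079 for Prf1. In VISTA-KO they were −0.53 and −0.11 for the medians, −0.41 for Pdcd1, −0.14 for Havcr2, −0.57 for Lag3, −0.63 for Tigit, −0.34 for Ctla4, −0.48 for Entpd1, −0.28 for Tox, 0.29 for Slamf6, −0.26 for Gzmb and −0.41 for Prf1. Over cells of at least 5000 UMIs the VISTA-KO inhibitory receptor median was −0.051, Tigit −0.051, genes lower 47, the WT expanded share 63.9% and the dividing share 21.1% in both libraries. With 4 or more UMIs required, the dividing share was 6.61% in WT and 7.30% in VISTA-KO and 163 genes were lower, and with 1 UMI of each gene 7.58%, 8.77% and 113. With the call made after thinning, 24 genes were lower, the shares were 13.2% and 14.4%, the largest WT clonotype took 19.2%, the VISTA-KO expanded share was 45.4%, Ctla4 in VISTA-KO over WT had a log2 ratio of 0.70 and 31 genes were higher in VISTA-KO. VISTA-KO over WT gave 21 genes higher without cells holding other RNA, 20 higher and 9 lower at a minimum of 50 CPM, 112 and 33 with no minimum, and 31 higher by the mean of cells' CPM, which gave 31 genes lower in dividing cells. At a minimum of 50 CPM, 195 genes were higher in dividing cells. Without the largest clonotype, the VISTA-KO expanded share was 41.5% and the WT dividing share 12.7%. Clonotypes by beta chain alone gave expanded shares of 74.9% and 56.6%, a size of 2 gave 77.7% and 68.4%, and a size of 10 gave 57.0% and 42.6%. Over cells with both chains the WT dividing share was 9.50%. The same-clonotype setting replaces the control cells and also keeps only dividing cells of clonotypes with at least 5 non-dividing cells (263 of 556 in WT and 218 of 529 in VISTA-KO), and the cause of none of these shifts was tested. No paired analysis was possible because the labels carry no replicate numbers and each genotype is 1 pool. Depth was addressed by the thinned call, by cells of at least 5000 UMIs and by the shares per depth class.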
